A study of Homo sapiens with 16 samples.

Results

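A set of 7 genes of tryptophan breakdown and of the aryl hydrocarbon receptor were followed through a knockdown of EWS-FLI1, the fusion transcription factor that drives Ewing sarcoma. They were TDO2, IDO1, KMO, KYNU and QPRT, which are enzymes of the kynurenine pathway, AHR, the aryl hydrocarbon receptor, and CYP1B1, a cytochrome P450 known as a target of that receptor. Every probe set annotated to exactly 1 gene symbol, that symbol being 1 of these, was taken, which gave 15 of the 22277 probe sets on the array and 7 of 11963 genes. The genes were picked with earlier results of these data in view, so their own changes are given as a description and without p-values. Of these, 5 genes (TDO2, KMO, QPRT, AHR and CYP1B1) reached a log2 value of 4 on at least 2 arrays and entered the fit across 7304 genes, while KYNU and IDO1 did not; of the probe sets, 8 passed this filter and 7 lay below it.

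The cells were A673, an established Ewing sarcoma line, in the form of a single clone, Asp14, that carries a doxycycline-inducible hairpin against EWS-FLI1. RNA was measured on 16 Affymetrix arrays, with 4 arrays taken when doxycycline was added (0 h) and 3, 3, 2, 2 and 2 arrays at 18, 36, 53, 72 and 96 h of doxycycline at 1 µg/ml. All groups, the 0 h arrays included, carried the hairpin vector and the tet repressor vector and grew under zeocin and blasticidin, and arrays of doxycycline on cells without the hairpin were not analysed here. The labels number the replicates without saying whether they were separate cultures, so the errors below cover only how far these arrays varied, which may be technical variation, and time in culture cannot be told apart from time with the hairpin.

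In the kynurenine pathway, TDO2 or IDO1 opens the ring of tryptophan in the step that commits the amino acid to breakdown, and the product is soon turned into kynurenine. Kynurenine can be hydroxylated by KMO, cut by KYNU on the way to quinolinate, and passed through QPRT into the synthesis of NAD, or it can be turned into kynurenic acid by aminotransferases. Kynurenine and kynurenic acid are known ligands of AHR, which waits in the cytosol with HSP90 and moves on binding to the nucleus, where it pairs with ARNT and switches on genes such as CYP1A1, CYP1B1 and TIPARP. TDO2 is best known from the liver and IDO1 from cells exposed to interferon.

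The hairpin's target checked the labels, since FLI1 was lower on all 12 arrays after doxycycline, by 3.08 to 3.67 on the log2 scale (8.47-fold to 12.7-fold). All 7 Ewing sarcoma markers with a probe set reached log2 4 at every time, but they did not hold their levels. At 18, 36, 53 and 72 h 6 of the 7, FLI1 among them, were called lower than at 0 h, and at 96 h all 7 were. Over all genes 14.7%, 32.1%, 34.5%, 39.2% and 35.7% were called lower. The median change of these markers at 96 h was -2.80, against -0.10 over all genes. All 9 macrophage and blood markers, all 9 hepatocyte markers and all 6 epithelial markers stayed under log2 4 on every array, with highest single values of 2.90, 2.72 and 3.13. Of 5 endothelial markers with a probe set 4 stayed under log2 4, and KDR, a receptor for VEGF, rose to 8.64. The upper quartile of an array ran from 8.08 to 8.18. Replicate 1 stood apart from replicates 2 and 3 at 18 h and at 36 h: the median absolute difference between replicates 2 and 3 was 0.0799 at 18 h and 0.0938 at 36 h, against 0.189 to 0.201 between replicate 1 and either of them. The calls of the 5 tested genes at 18 h and 36 h against 0 h were the same without replicate 1 of either time. The 0 h arrays were not evenly spaced either. There replicates 2 and 3 differed by 0.0792, against 0.152 to 0.172 between either of them and replicate 1 or replicate 4. The log2 difference between the 3' and 5' ends of ACTB, a sign of RNA quality, was 2.09 to 2.45 at 36 h and 1.47 to 2.34 at the other times. Its part in the results was not tested.

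Promoter sequences of 300 bases, from 250 before a gene's start to 50 after it, were taken from RefSeq on GRCh38.p14 and matched 5 of the 7 genes, in 6 windows. The windows of TDO2 and KMO, which moved furthest up and down of the 7 at 96 h, and of AHR are shown 5′ to 3′, all on the plus strand, with the motifs found in capitals.
TDO2, chr4:155903446-155903745: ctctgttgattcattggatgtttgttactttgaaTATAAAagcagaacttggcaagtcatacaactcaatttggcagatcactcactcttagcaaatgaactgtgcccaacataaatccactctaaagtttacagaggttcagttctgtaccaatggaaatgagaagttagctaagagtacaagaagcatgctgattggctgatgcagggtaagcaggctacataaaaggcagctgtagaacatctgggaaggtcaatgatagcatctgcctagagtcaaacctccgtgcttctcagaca
KMO, chr1:241532128-241532427: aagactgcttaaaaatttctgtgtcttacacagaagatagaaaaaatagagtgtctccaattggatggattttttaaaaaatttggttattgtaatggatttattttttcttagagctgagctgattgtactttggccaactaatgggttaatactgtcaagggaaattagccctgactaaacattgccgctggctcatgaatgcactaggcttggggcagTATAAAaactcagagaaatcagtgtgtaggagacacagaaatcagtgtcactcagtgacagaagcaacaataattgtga
AHR, chr7:17298402-17298701: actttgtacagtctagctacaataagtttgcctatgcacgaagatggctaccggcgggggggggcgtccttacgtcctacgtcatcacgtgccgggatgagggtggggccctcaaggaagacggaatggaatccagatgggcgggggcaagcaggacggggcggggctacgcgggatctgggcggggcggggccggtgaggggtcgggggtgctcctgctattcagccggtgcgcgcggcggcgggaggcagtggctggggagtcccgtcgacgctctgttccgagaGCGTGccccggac
The capitals mark TATAAA, the letters of a TATA box, and GCGTG, the core of the dioxin response element that AHR and ARNT bind. TATAAA began 216 bases before the TDO2 start and 29 bases before the KMO start, and GCGTG began 37 bases after the AHR start. Whether either TATAAA match works as a TATA box was not tested. Both strands were searched for 7 motifs. Of 35116 promoter windows of this length 36.5% held GCGTG, 5.51% held TNGCGTG, which contains it, 11.5% held TATAAA, 3.67% held GGAAGGAA, a repeat of the ETS site, 3.57% the interferon-stimulated response element, 7.66% TTCNNNGAA, the interferon gamma site, and 0.39% the glucocorticoid response element. The AHR window was the only 1 of the 6 with GCGTG, and none of the 6 held TNGCGTG, GGAAGGAA or the interferon-stimulated and glucocorticoid elements. The KYNU window, which is not shown, was the only 1 with TTCNNNGAA. It held 2 such matches, the first beginning 34 bases before the start, and 3 matches of TATAAA. These matches are letters in a window and not measured binding.

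TDO2 was the gene of the 7 with the highest increase. On the probe set 205943_at the log2 values at 0 h were 4.53, 4.90, 5.25 and 6.51. They were 7.87, 7.86 and 7.97 at 18 h and 9.93, 9.50 and 9.88 at 36 h, then 12.09 and 11.95 at 53 h, 13.31 and 13.21 at 72 h, and 13.34 and 13.24 at 96 h. No array after doxycycline overlapped the 0 h arrays, and the values of each time up to 72 h lay wholly above those of the time before. The changes against 0 h at 18, 36, 53, 72 and 96 h were 2.60 ± 0.33 (SE of the fit, 3 arrays against 4), 4.47 ± 0.33, 6.72 ± 0.37, 7.96 ± 0.37 and 7.99 ± 0.37 (2 arrays against 4 for the last 3 times), which is 6.07-fold, 22.2-fold, 106-fold, 250-fold and 255-fold. At 96 h TDO2 ranked 7 from the top among the 7304 genes, and at 18 h it ranked 22.

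TDO2 passed the threshold in each of the first 3 intervals. After the change at 18 h it rose by 1.87 ± 0.35 from 18 h to 36 h and by 2.25 ± 0.39 from 36 h to 53 h. From 53 h to 72 h the difference was 1.24 ± 0.43, with both later arrays above both earlier ones, and it did not pass the threshold; without replicate 4 of 0 h (6.51), or without replicate 1 (4.53), it passed, at 1.24 ± 0.19 and 1.24 ± 0.36. From 72 h to 96 h it was 0.03, and the arrays overlapped. The 0 h arrays had the widest spread of TDO2 (SD 0.86, n = 4), against SDs of 0.06 to 0.24 later. The highest value of any probe set on any array was 15.2, so that TDO2 at 13.34 lay below the top of the scale.

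IDO1, the other enzyme of the first step, had 1 probe set, 210029_at, and its values ran from 2.14 to 2.19 over all 16 arrays. Every array lay under log2 4, so only a bound can be given for it, and no fold is stated.

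KMO, the hydroxylase that acts on kynurenine, moved the other way. On the probe set 211138_s_at the 0 h arrays read 6.11, 5.46, 4.65 and 5.69. They read 2.57, 2.17 and 2.19 at 18 h and 2.17, 1.96 and 1.94 at 36 h, and from 53 h to 96 h the 6 arrays ran from 1.92 to 1.96. All 12 arrays after doxycycline lay below all 4 arrays at 0 h and under log2 4. KMO fell at each of the 5 later times. It passed the filter only through the 4 arrays of 0 h, where it was high, so a call of lower against 0 h was largely fixed in advance and is not read as a test. Since values under log2 4 lie near background and have no sure order, only a bound is given for its size, at least 2.78-fold with the dim arrays set to log2 4.

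The other KMO probe sets differed from each other. On 205306_x_at the 0 h arrays read 6.35, 4.94, 4.96 and 5.24, and all later arrays read 1.86 to 2.37, a decrease of at least 2.59-fold. On 205307_s_at the values ran from 2.19 to 2.39 on all arrays. No step after 18 h was called for KMO, whose arrays were then all under log2 4. Both responding KMO probe sets end in _x_at or _s_at, which marks probes that other transcripts may share.

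KYNU, which cuts kynurenine and hydroxykynurenine, stayed under log2 4 on all 4 of its probe sets. The probe set 217388_s_at read 3.79 and 3.56 at 72 h and 2.38 to 2.45 on the other 14 arrays. On 204385_at replicate 2 of 72 h read 2.38 and the other arrays 1.92 to 1.99, while 210662_at ran from 2.99 to 3.23 and 210663_s_at from 2.31 to 2.37. KYNU was therefore not tested, and no direction is given for it.

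QPRT, which turns quinolinate into a precursor of NAD, rose early and came back. On 204044_at the 0 h arrays read 7.72, 7.42, 7.26 and 7.70, those at 18 h 9.07, 8.55 and 8.56, and those at 36 h 9.61, 9.50 and 9.61. They read 9.08 and 9.40 at 53 h, 7.71 and 7.64 at 72 h, and 6.87 and 7.32 at 96 h. The arrays at 18 h, 36 h and 53 h lay wholly above 0 h, and those at 72 h and 96 h overlapped it. The change against 0 h was 1.20 ± 0.16 at 18 h, 2.05 ± 0.16 at 36 h (4.14-fold) and 1.71 ± 0.18 at 53 h. At 72 h it was 0.15 ± 0.18 and at 96 h -0.43 ± 0.18, and neither passed. The value at 96 h ran from -0.66 to -0.20 on leaving out 1 array, and it passed without replicate 3 of 0 h (-0.52 ± 0.18), without replicate 1 of 18 h (-0.43 ± 0.16), without replicate 2 of 96 h (-0.66 ± 0.22), and with each array centred on its median (-0.62 ± 0.17). At 72 h the centred value was -0.02, while with array weights it was 0.29 ± 0.12 and passed.

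By steps, QPRT rose by 0.85 ± 0.17 from 18 h to 36 h and fell by 1.56 ± 0.21 from 53 h to 72 h. From 36 h to 53 h it differed by -0.34 and from 72 h to 96 h by -0.58 ± 0.21, in both cases with every later array below every earlier one, and neither passed. The last of these passed without replicate 1 of 18 h and without replicate 2 of 96 h (-0.81 ± 0.24).

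**Figure D1:**
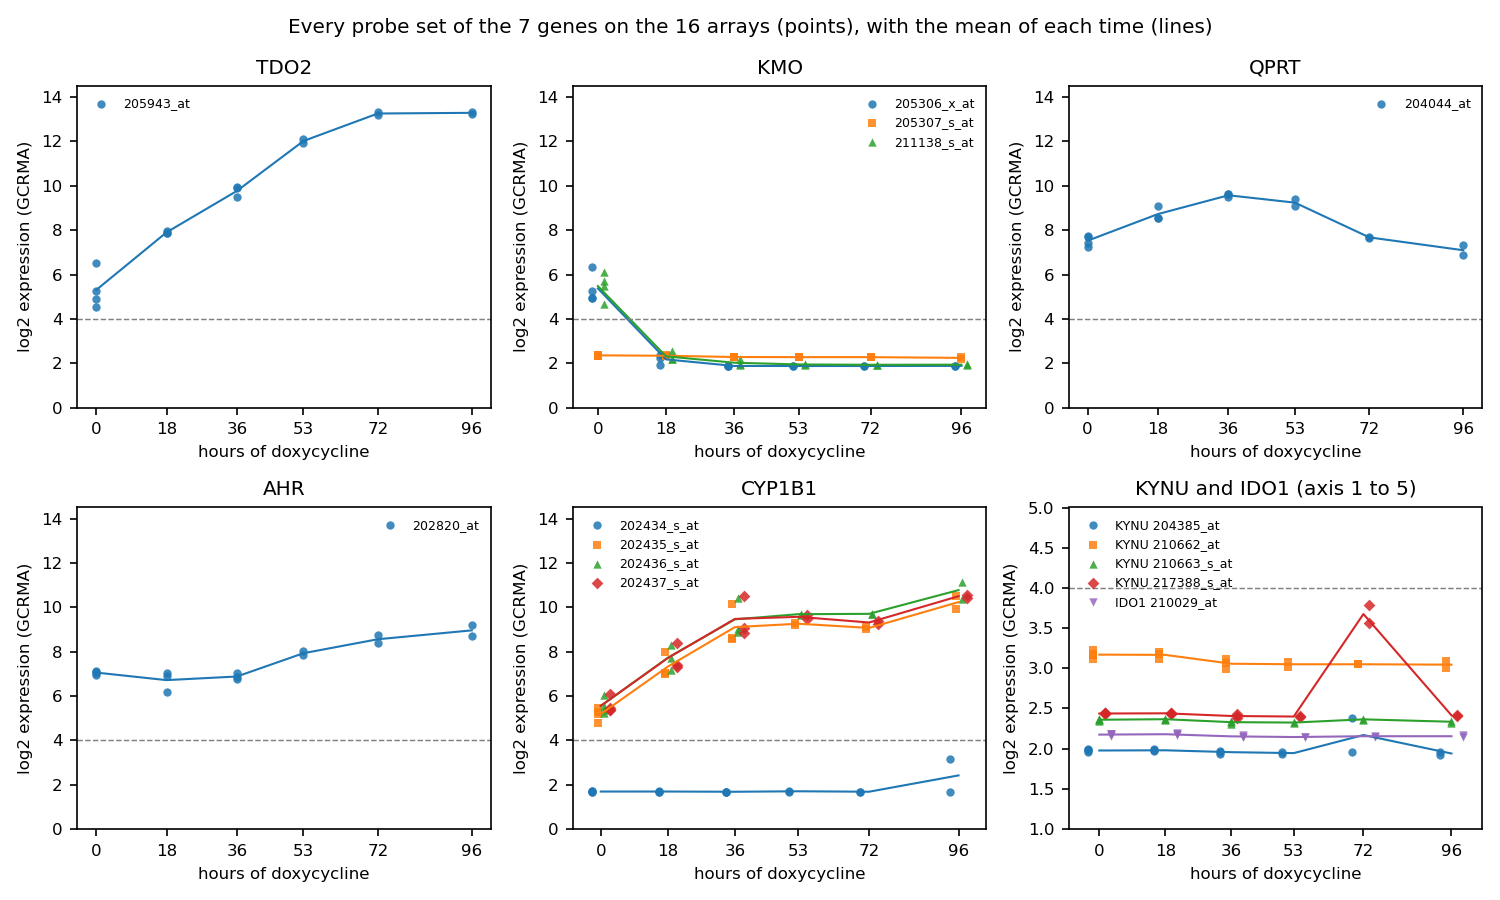
Log2 expression (y axis, GCRMA values) of the member genes on each of the 16 arrays against hours of doxycycline (x axis), with points for arrays, lines through the means of each time and a dashed line at log2 4. TDO2 climbs from 4.53 to 6.51 at 0 h to above 13 at 72 h and 96 h, KMO drops under log2 4 by 18 h, QPRT peaks at 36 h, and IDO1 stays between 2.14 and 2.19.

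AHR, the receptor, rose late. On 202820_at the 0 h arrays read 7.15, 7.04, 7.10 and 6.94, those at 18 h 6.20, 7.06 and 6.89, and those at 36 h 7.05, 6.84 and 6.75. They read 7.85 and 8.01 at 53 h, 8.73 and 8.39 at 72 h, and 9.20 and 8.72 at 96 h. The first 3 times overlapped each other, and every array from 53 h on lay above all 10 arrays up to 36 h. At 18 h the difference from 0 h was -0.34 ± 0.19 and at 36 h -0.18 ± 0.19, and neither passed; without replicate 1 the value at 18 h was -0.08. The change was 0.87 ± 0.21 at 53 h (1.83-fold), 1.50 ± 0.21 at 72 h (2.83-fold) and 1.90 ± 0.21 at 96 h (3.74-fold). The step from 36 h to 53 h was 1.05 ± 0.22 and passed, but at 0.97 ± 0.29 without replicate 2 of 53 h it did not. The later steps of 0.63 and 0.40 did not pass. That of 0.63, from 53 h to 72 h, passed with array weights, with only the groups compared and without replicate 1 of 18 h (0.63 ± 0.17). With array weights the difference at 36 h against 0 h also passed, at -0.28 ± 0.11.

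CYP1B1, the P450 target, rose from 18 h on. On 202436_s_at, the brightest of its probe sets, the 0 h arrays read 6.04, 5.23, 5.53 and 5.39, those at 18 h 8.28, 7.17 and 7.73, and those at 36 h 10.44, 8.90 and 9.03. They read 9.67 and 9.71 at 53 h, 9.70 and 9.71 at 72 h, and 10.39 and 11.16 at 96 h. No later array overlapped 0 h. The change was 2.18 ± 0.35 at 18 h (4.53-fold), 3.91 ± 0.35 at 36 h (15.0-fold), 4.14 ± 0.40 at 53 h, 4.15 ± 0.40 at 72 h and 5.23 ± 0.40 at 96 h (37.5-fold). Replicate 1, which stood apart at 36 h, was also the highest for CYP1B1 there, and the change at 36 h was 3.42 without it.

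CYP1B1 rose by 1.73 ± 0.38 from 18 h to 36 h, and the differences from 36 h to 53 h and from 53 h to 72 h lay within the error. From 72 h to 96 h it differed by 1.07 ± 0.46, with both later arrays higher, and did not pass; without replicate 1 of 36 h it passed. The probe sets 202435_s_at and 202437_s_at gave 5.05 ± 0.40 and 4.94 ± 0.40 at 96 h against 0 h. The fourth, 202434_s_at, read 1.68 to 1.72 on all arrays but replicate 2 of 96 h, which read 3.15. All 4 end in _s_at.

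**Figure D2:**
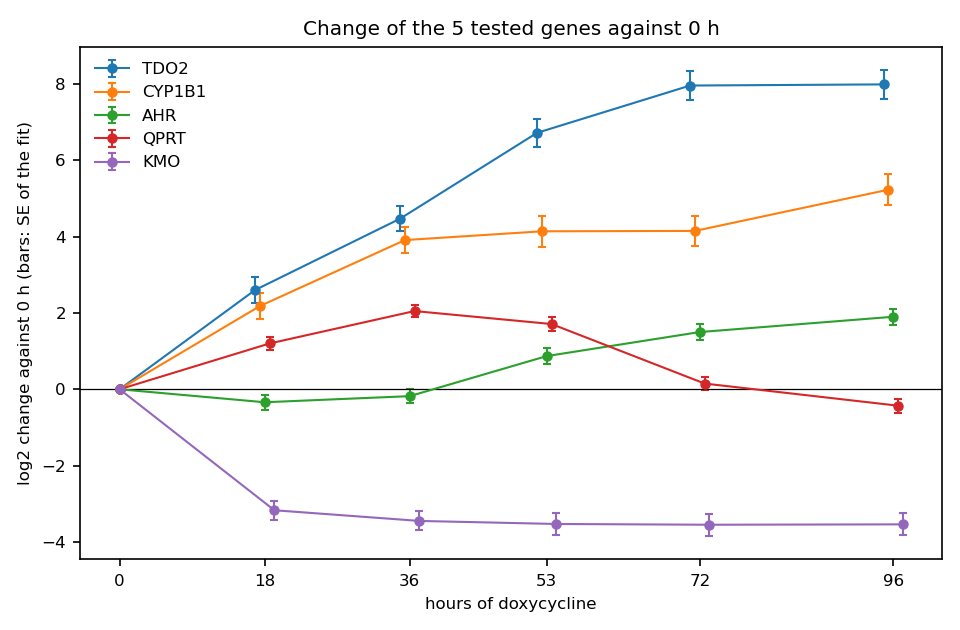
Log2 change against 0 h (y axis; bars are the SE of the fit) of the 5 tested genes at 18, 36, 53, 72 and 96 h of doxycycline (x axis, hours). TDO2 levels off at 7.96 and 7.99, CYP1B1 reaches 5.23, AHR leaves the zero line only from 53 h, QPRT returns to it by 72 h, and KMO lies below 0 h from 18 h on, where its arrays are under log2 4 and the plotted size is not a sure value.

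Counted together, 3 of the 5 tested genes rose and 1 fell at 18 h, where limma's adjusted p called 29.4% of all genes, 14.8% higher and 14.7% lower. At 36 h it was again 3 and 1 (65.3% of all genes, 33.2% higher and 32.1% lower). At 53 h 4 rose and 1 fell (66.3%, 31.8% and 34.5%), at 72 h 3 and 1 (68.5%, 29.3% and 39.2%), and at 96 h 3 and 1 (60.8%, 25.1% and 35.7%). Between 18 h and 36 h 3 rose (44.8% of all genes, 21.9% higher and 22.9% lower), and between 36 h and 53 h 2 rose (12.6%, 5.37% and 7.23%). Between 53 h and 72 h 1 fell (16.6%, 5.61% higher and 11.0% lower), and between 72 h and 96 h 0 passed (27.2%, 17.1% and 10.1%); limma's unadjusted p under 0.05 between 72 h and 96 h was met by 2 of the 5. The 1 gene that fell against 0 h was KMO at each time, and it passed the filter only through 0 h. As the genes were chosen on these contrasts, nothing is read from these counts. In bulk RNA, a change in the share of cells that express a gene and a change in RNA per cell cannot be told apart.

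The arrays of TDO2, KMO, CYP1B1 and QPRT had all separated from 0 h by 18 h, and those of AHR by 53 h. The levels of TDO2 followed the order 0 h, 18 h, 36 h, 53 h, 72 h and 96 h, with the last 2 times not differing beyond their spread. The order for QPRT from low to high was 96 h, 0 h, 72 h, 18 h, 53 h and 36 h, and the first 3 of these overlapped or did not pass. For AHR the order was 18 h, 36 h, 0 h, 53 h, 72 h and 96 h. In the fit as reported the first 3 of these did not differ beyond their spread, and the last 3 rose by steps that did not pass one at a time. For CYP1B1 it was 0 h, 18 h, 36 h, 53 h, 72 h and 96 h, and 36 h, 53 h and 72 h did not differ beyond their spread.

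Across the 16 arrays, which share their times, Pearson's r between log2 values was taken as a description of likeness. TDO2 had r = 0.922 with CYP1B1, 0.769 with AHR and -0.817 with KMO, and AHR had r = 0.590 with CYP1B1 and -0.511 with QPRT. Among all tested genes, the closest to TDO2 were EGFR (r = 0.989), L1CAM (0.984) and EHD2 (0.982). EGFR, a receptor tyrosine kinase, went from a mean of 3.68 at 0 h to 7.50 at 96 h. The closest to KMO were PCDH8 (0.993), PADI2 (0.984) and GFRA2 (0.983), and the closest to QPRT were LYRM9 (0.972), LTA4H (0.966) and BEND5 (0.958). The closest to AHR were AQP1 (0.963), CDK2AP1 (0.961) and AKAP12 (0.959), and the closest to CYP1B1 were MGST3 (0.986), ARHGAP44 (0.975) and SOBP (0.975). At 36 h PCDH8, PADI2 and GFRA2 had means of 2.61, 3.14 and 2.58, under log2 4 like KMO. Their r with KMO thus rests mainly on the contrast of 0 h with values near background. LYRM9, AQP1 and ARHGAP44 had means under log2 4 at 0 h (2.18, 2.1 and 2.99).

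The other tested kynurenine enzymes were lower than at 0 h wherever they were called against it. Of 10 listed, 6 had a probe set and 4 were tested, and against 0 h 0, 3, 3, 4 and 3 fell at the 5 later times in order, with 0 higher at any time. Over all genes 14.7%, 32.1%, 34.5%, 39.2% and 35.7% were called lower and 14.8%, 33.2%, 31.8%, 29.3% and 25.1% higher. At 18 h 0 of the 4 met limma's unadjusted p of 0.05, and at 36 h the KYAT1 call (limma adjusted p = 0.048) was lost without replicate 1 of 36 h, among other arrays (0.105). Their median change was -1.34 at 72 h, against -0.11 over all genes, of which 39.2% were called lower. KYAT1, a kynurenine aminotransferase, read 6.91, 6.86, 6.60 and 6.22 at 0 h and 4.60 and 4.24 at 72 h. It fell by 2.23 ± 0.18 at 72 h (limma adjusted p = 1.01e-07) and by 1.35 ± 0.18 at 96 h (2.3e-05). GCDH, which acts on glutaryl-CoA further down lysine and tryptophan breakdown, fell by 1.73 ± 0.19 at 72 h (limma adjusted p = 1.99e-06) and GOT2, a mitochondrial aminotransferase, by 0.95 ± 0.10 (1.49e-06). KYAT3, another aminotransferase, fell by 0.52 ± 0.12 at 72 h (limma adjusted p = 0.00166), and its call was lost without replicate 2 of 72 h (adjusted p = 0.0561). KYAT1, GCDH and GOT2 were all higher at 96 h than at 72 h, by 0.88 ± 0.20, 1.10 ± 0.22 and 0.54 ± 0.12 (limma adjusted p of 0.00638, 0.00204 and 0.00346).

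In NAD synthesis and salvage, 6 of 12 listed genes were tested and members moved both ways. At 72 h 3 rose and 2 fell, where 29.3% of all genes were called higher and 39.2% lower, and at 96 h 4 rose and 1 fell (25.1% and 35.7%). With dim values set to log2 4, 2 rose at 72 h and 3 at 96 h, as NMRK1 was lost at both times. At 96 h 2 fell without replicate 1 of 36 h, and 2 with arrays centred. NNMT, which methylates nicotinamide, read 2.86, 3.08, 2.91 and 3.08 at 0 h and 9.31 and 9.08 at 72 h. It rose at least 36.6-fold at 72 h and at least 28.3-fold at 96 h (limma adjusted p of 3.04e-07 and 1.28e-06). NAMPT, which makes the mononucleotide from nicotinamide, rose by 1.63 ± 0.13 at 72 h (limma adjusted p = 8.34e-08) and was at 0.79 ± 0.13 at 96 h (0.000134). NADSYN1, the last enzyme on the route from QPRT to NAD, rose only at the last time, by 0.96 ± 0.14 at 96 h (limma adjusted p = 4.8e-05) and by 0.99 ± 0.16 over 72 h (0.000475), with changes of -0.13 to -0.02 before. NADK, which phosphorylates NAD, fell by 0.98 ± 0.10 at 72 h (limma adjusted p = 1.12e-06), while its probe set 208919_s_at differed there by -0.14 and did not pass. NMRK1, a riboside kinase, rose at least 1.89-fold at 53 h (limma adjusted p = 1.81e-06).

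For transport of tryptophan and its other fates, 7 of 20 listed genes were tested, and 2, 3, 3, 2 and 1 rose at the 5 later times in order, where 14.8%, 33.2%, 31.8%, 29.3% and 25.1% of all genes were called higher, and 0, 0, 0, 1 and 3 fell (14.7%, 32.1%, 34.5%, 39.2% and 35.7% called lower). Without replicate 1 of 36 h, the array that stood apart there, 3, 4, 3, 2 and 2 rose and 2, 0, 2, 4 and 4 fell. Without replicate 1 of 18 h, 1 rose at 18 h, with arrays centred 1 rose at 53 h and at 72 h and 2 fell at 72 h, and with dim values set to log2 4 1 rose at 18 h and 0 at 96 h. MAOA, which oxidises serotonin and other amines, read at most 3.28 at 0 h and rose at least 4.26-fold at 72 h (limma adjusted p = 7.67e-08). Its other probe sets, 204388_s_at and 204389_at, differed there by 0.49 and 0.12, and neither passed. On the first probe set MAOA fell by 2.09 ± 0.27 from 72 h to 96 h (7.92e-05). WARS1, the cytosolic tryptophanyl-tRNA synthetase, differed from 0 h by 1.30 ± 0.42 at 36 h (limma adjusted p = 0.0146), where replicate 1 read 8.85, under all 0 h arrays, and the others 11.42 and 11.10. The call was lost without replicate 2 or replicate 3 of 36 h (adjusted p of 0.0951 and 0.0803). SLC7A5 and SLC3A2, the light and heavy chain of the main tryptophan carrier, differed at 96 h by -1.79 ± 0.60 and -1.15 ± 0.45 (limma adjusted p of 0.0193 and 0.0415). Both calls were lost without replicate 2 of 96 h (adjusted p of 0.14 and 0.233) and with the replicate number as a block (0.0575 and 0.125), and that of SLC3A2 also on leaving out any array of 0 h, 53 h, 72 h or 96 h. At 72 h SLC7A5 differed by -1.41 ± 0.60 and SLC3A2 by -0.68 ± 0.45 (limma adjusted p of 0.0501 and 0.199), and among other alternatives both passed without replicate 1 of 36 h (1.99e-06 and 0.00238). WARS2, the mitochondrial synthetase, fell by 0.47 ± 0.13 at 96 h (limma adjusted p = 0.00622), a call lost without replicate 1 of 96 h (0.108).

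**Figure D3:**
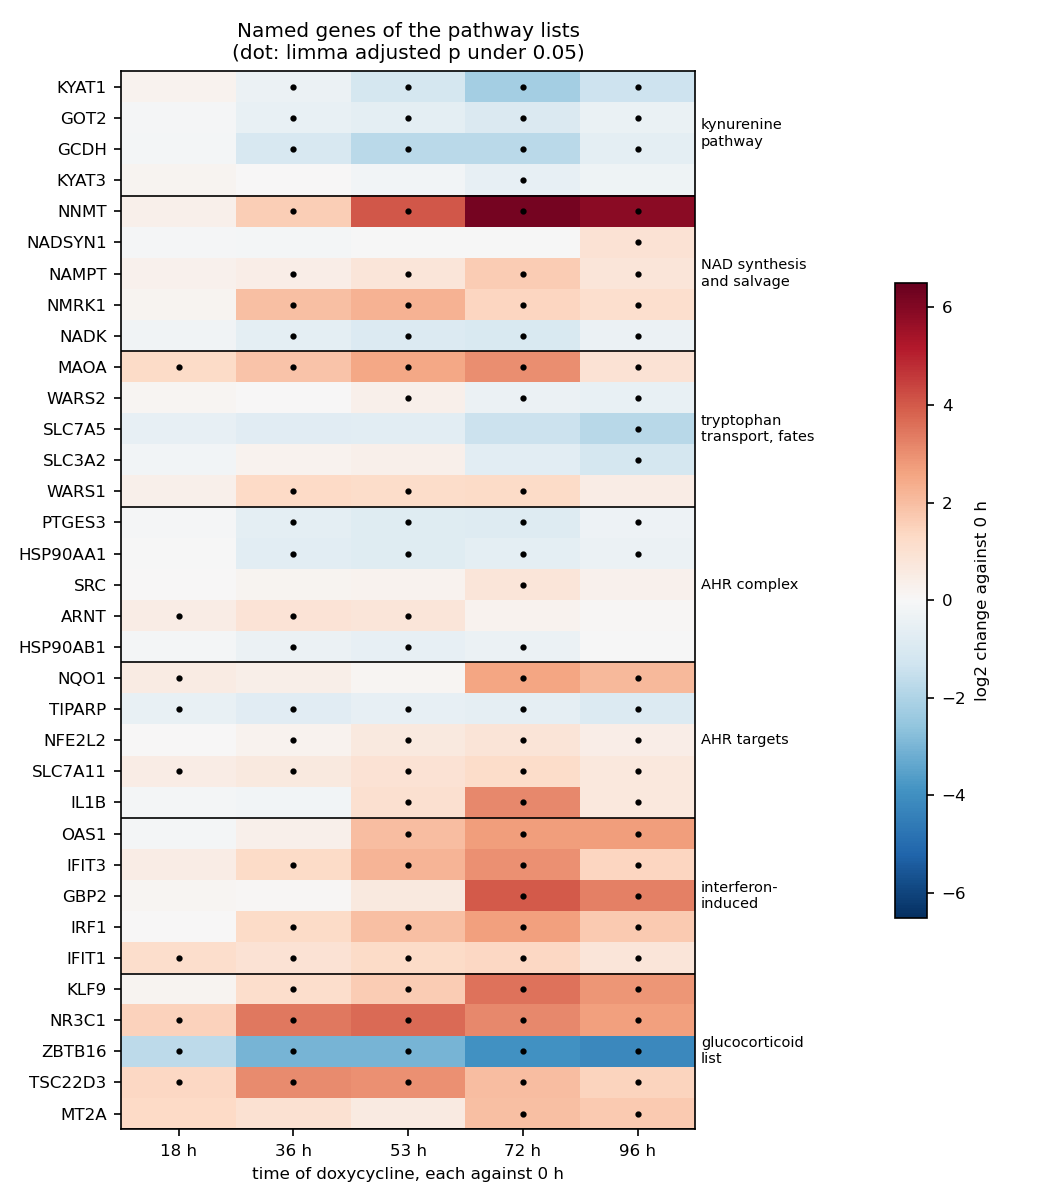
Log2 change against 0 h (colour, red higher and blue lower) of the named genes of each list (rows) at the 5 later times (columns), with a dot where limma's adjusted p passed 0.05. KYAT1, GOT2, GCDH and KYAT3 are blue at 72 h, NNMT is the darkest red there at 6.21, and the lists of AHR partners and targets hold both colours.

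Among the partners of AHR, 5 of 8 listed genes were tested, and 1, 1, 1, 1 and 0 rose and 0, 3, 3, 3 and 2 fell at the 5 later times in order. Over all genes 14.8%, 33.2%, 31.8%, 29.3% and 25.1% were called higher and 14.7%, 32.1%, 34.5%, 39.2% and 35.7% lower. ARNT, the partner of AHR on DNA, rose by 0.49 ± 0.11 at 18 h and 0.89 ± 0.11 at 36 h (limma adjusted p of 0.00598 and 1.26e-05) and was at 0.10 ± 0.13 at 96 h, which did not pass. ARNT was thus higher at times when AHR overlapped its 0 h values. The chaperones that hold AHR in the cytosol were lower from 36 h to 72 h, PTGES3 by 0.83 ± 0.07 at 72 h (limma adjusted p = 1.03e-07), HSP90AA1 by 0.78 ± 0.10 at 53 h (1.13e-05) and HSP90AB1 by 0.52 ± 0.06 at 53 h (7.62e-06). From 72 h to 96 h PTGES3 rose by 0.50 ± 0.08 and HSP90AB1 by 0.33 ± 0.07 (limma adjusted p of 0.000286 and 0.00465), and at 96 h HSP90AB1 differed from 0 h by -0.04 ± 0.06, which did not pass, or by -0.23 with arrays centred, which did (limma adjusted p = 0.00872). HSP90AA1 differed by -0.36 ± 0.10 at 96 h (limma adjusted p = 0.00609), a call lost without replicate 2 of 96 h (0.163). SRC, a kinase found with the receptor, rose by 0.79 ± 0.13 at 72 h (limma adjusted p = 0.000103), fell by 0.52 ± 0.15 from 72 h to 96 h (0.0197), and at 96 h differed from 0 h by 0.26 ± 0.13, which passed only without replicate 2 of 96 h (0.41, limma adjusted p = 0.0424).

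Other genes known as AHR targets moved both ways. Of 17 listed, 15 had a probe set and 8 were tested; 2, 4, 6, 4 and 4 rose at the 5 later times in order, and 1 fell at each, where 14.8%, 33.2%, 31.8%, 29.3% and 25.1% of all genes were called higher. Without replicate 1 of 18 h, 0 rose at 18 h, and with arrays centred 2 rose at 36 h and at 96 h. The list's median change at 96 h was 0.47, against -0.10 over all genes. CYP1A1, the classical target, chosen for mention after its values were seen, ran from 1.92 to 1.96 on all arrays and was not tested. TIPARP, an ADP-ribosyltransferase that limits AHR, was lower at every time and by 0.87 ± 0.10 at 96 h (limma adjusted p = 5.91e-06). NQO1, a quinone reductase shared with the NRF2 pathway, rose by 0.52 ± 0.16 at 18 h (limma adjusted p = 0.0251). That call was lost without replicate 1 of 18 h, among other arrays (adjusted p = 0.0561). NQO1 did not pass at 53 h (0.15 ± 0.18) and rose by 2.57 ± 0.18 at 72 h and 2.09 ± 0.18 at 96 h (limma adjusted p of 2.72e-08 and 4.93e-07).

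SLC7A11, the cystine carrier, rose by 1.18 ± 0.18 at 72 h (limma adjusted p = 5.65e-05), and NFE2L2, which encodes NRF2, by 0.84 ± 0.11 (8.18e-06). Of the other SLC7A11 probe sets, 209921_at differed at 72 h by 1.01 and passed, while 207528_s_at differed by 0.61 and did not. At 96 h the NFE2L2 call was lost with arrays centred (0.22, adjusted p = 0.107), and the SLC7A11 call without replicate 1 of 96 h (adjusted p = 0.0664). IL1B, an inflammatory cytokine, read 7.10 and 7.52 at 72 h against 4.05 to 4.61 at 0 h, a rise of 3.10 ± 0.24 (limma adjusted p = 7.27e-08), and 5.17 and 4.67 at 96 h.

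**Figure D4:**
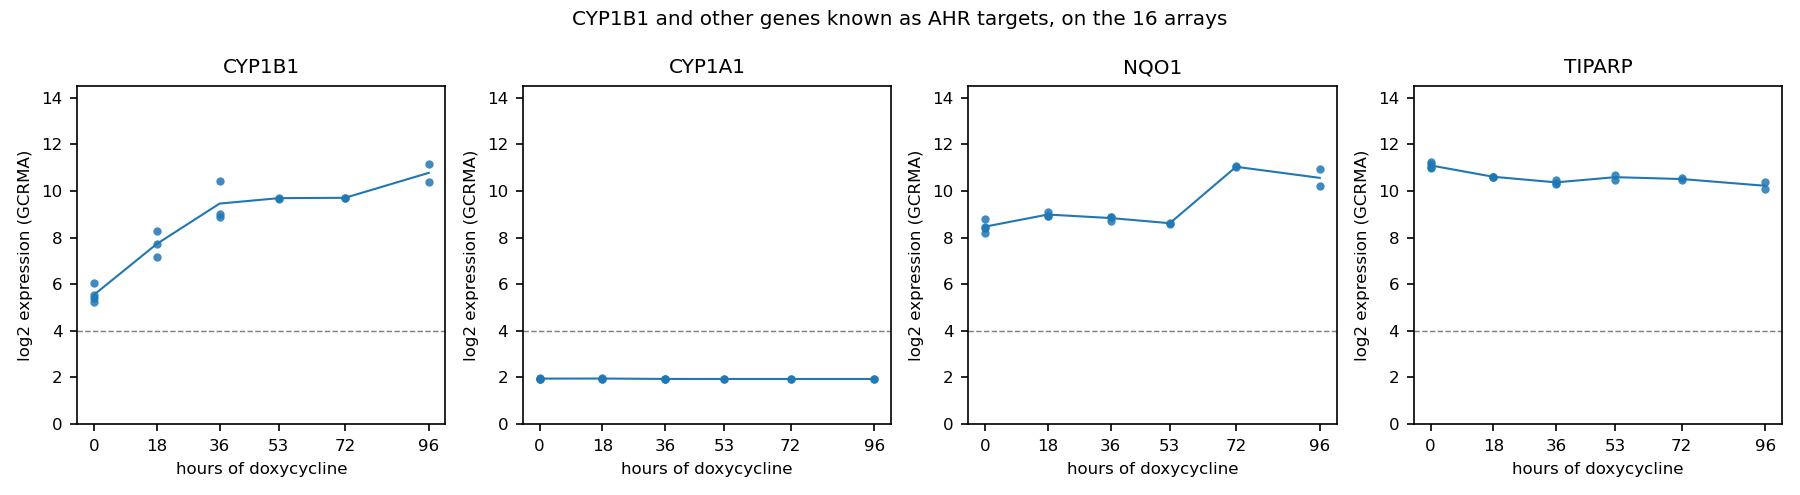
Log2 expression (y axis, GCRMA values) of CYP1B1, CYP1A1, NQO1 and TIPARP on each array (points) against hours of doxycycline (x axis), with lines through the means and a dashed line at log2 4. CYP1B1 rises from 18 h, CYP1A1 stays between 1.92 and 1.96, NQO1 is highest at 72 h, and TIPARP is lower than at 0 h at every later time.

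Interferon-induced genes were listed because interferon is the best known inducer of IDO1. Of 16 listed, 9 were tested, and 3, 5, 4, 6 and 7 rose at 18, 36, 53, 72 and 96 h, with 1 lower at 72 h. Over all genes 14.8%, 33.2%, 31.8%, 29.3% and 25.1% were called higher and 14.7%, 32.1%, 34.5%, 39.2% and 35.7% lower. Without replicate 1 of 18 h, 1 of them rose at 18 h, and with dim values set to log2 4 the numbers were 1, 3, 3, 5 and 5. GBP2, a guanylate-binding protein, read 8.03 and 8.22 at 72 h against 3.82 to 4.44 at 0 h and rose by 3.98 ± 0.50 (limma adjusted p = 9.24e-06). IFIT3 rose at least 5.75-fold and OAS1 at least 3.04-fold at 72 h (limma adjusted p of 3.1e-08 and 2.21e-07), and IRF1, a transcription factor of the response, at least 2.24-fold (1.29e-05). IFIT1 rose at least 1.1-fold at 72 h (limma adjusted p = 8.71e-06), a call lost at every time with dim values set to log2 4. The genes named next were picked with their values known. IFI44 fell by 2.00 ± 0.39 at 72 h (limma adjusted p = 0.000436) and was higher by 1.12 ± 0.39 at 96 h (0.0234). At 72 h GBP1 differed by 0.04 and ISG15 by -0.17, and neither passed. The 6 listed genes with a probe set that were not tested, MX1 and CXCL10 among them, ran from 1.66 to 2.46 on all arrays. IDO1 itself stayed at 2.19 or less on the same arrays.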

How the data were processed

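RNA of A673 Asp14 cells was measured on 16 arrays grouped by the hours in the labels. The authors deposited probe set values on a log2 scale, read as such from their range of 0.388 to 15.2. The submitters' processing notes name GCRMA, and its version and settings were not given in the sources used here. GCRMA compresses dim values.

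The genes and lists were chosen with earlier results of these data known. The brightest probe set of each gene was used, and 7304 genes with log2 of at least 4 on at least 2 arrays entered limma 3.58.1 under R 4.3.3 (1 mean per time, trended eBayes, 10 residual degrees of freedom, Benjamini-Hochberg adjustment, threshold 0.05), after a test on simulated data. A second fit covered single probe sets. In "at least" folds, dim values are set to log2 4. Named genes were all members, up to 5 called genes per list by the smallest adjusted p at 96 h, and the 3 closest genes to each member. The package data.table (1.17.8), Python 3.11.15 and matplotlib 3.10.9 were used. Alternatives changed normalization, filter, probe sets, weights, variance model, block and arrays.

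Deviations of same-numbered arrays correlated at 0.214 to 0.632 between 0 h, 18 h and 36 h, all past the 0.1 used as the limit for pairs. Replicates 2 and 3 also correlated across numbers (0.202 to 0.550), and replicate 1 against them at -0.591 to -0.230, so the values separate replicate 1 from the other two more than they show pairs. The labels state no pairing, and the errors printed come from a fit without a block, which was an alternative. Between 53, 72 and 96 h, with 2 arrays each, same numbers correlated at 0.00262 to 0.248.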

Additional observations from a re-analysis of the deposited data

Results flagged for a closer look

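In the 15 groups of 4 arrays at 0 h, 1 per probe set, 2 held an array far from the other 3 by Dixon's ratio, the gap to the nearest array over the whole range, which chance puts past its limit in about 1 of 20 groups. On the CYP1B1 probe set 202437_s_at this ratio was 0.866, with replicate 1 at 6.07 and the others at 5.35 to 5.45. On the IDO1 probe set 210029_at it was 0.856, within a range of 2.16 to 2.18 that lies at background.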

How the results depend on the processing

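No member change called in the fit as reported changed sign under any alternative run. Some uncalled ones did: QPRT at 72 h against 0 h (0.15) passed at 0.29 with array weights and was -0.02 with arrays centred, and on leaving out 1 array the change of AHR from 18 h to 36 h (0.16) ran from -0.10 to 0.33, that of CYP1B1 from 36 h to 53 h (0.23) from -0.04 to 0.72 and from 53 h to 72 h (0.01) from -0.01 to 0.04, and that of TDO2 from 72 h to 96 h (0.03) from -0.02 to 0.08. Of the member changes under alternatives other than leaving out an array, 509 kept their side of the threshold and 13 passed it newly; on leaving out 1 array, 710 kept it, 9 passed newly and 1 was lost. Leaving out probe sets ending in _x_at or _s_at removes KMO and CYP1B1 by construction and leaves 1320, 2854, 2932, 3019 and 2694 genes called at 18 h to 96 h, 1907, 562, 718 and 1123 in the steps, 2, 2, 3, 2 and 2 members called against 0 h, and 7, 22 and 20 pathway list genes at 18 h, 72 h and 96 h. Array weights gave 3546 genes at 18 h and 1711 from 36 h to 53 h. Fitting only the groups compared gave 496 genes from 36 h to 53 h, and averaging replicates 2 and 3 at 18 h and 36 h, chosen after the data were seen, gave 519 there and 2085 from 18 h to 36 h. From 53 h to 72 h, 3 members were called with array weights and with only the groups compared. From 72 h to 96 h, 1 was called with each of these, a second quantile normalization, centred arrays and the mean of probe sets. The cause was not tested.

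With the replicate number as a block, 2 members were called from 53 h to 72 h, as TDO2 passed there at 1.24 ± 0.17; the other member calls were the same. Leaving out 1 array gave 1353 to 2443 genes and 7 to 20 list genes at 18 h, 321 to 1155 genes and 1 to 2 members from 36 h to 53 h, 468 to 1445 genes and 1 to 2 members from 53 h to 72 h, and 1234 to 2227 genes and 0 to 1 members from 72 h to 96 h. Centring arrays moved the median change at 96 h by -0.19 and the share of called genes that were higher from 41.2% to 29.7%, and from 48.8% to 38.1% between 18 h and 36 h. The number of arrays limits the precision, and values under log2 4 carry only bounds.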

Other observations

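Glucocorticoids are a known inducer of TDO2 in liver, so a list of 10 genes was examined, which held genes induced by them and also the receptor NR3C1 and the enzyme HSD11B1. Of these 7 were tested, and 2, 3, 4, 6 and 5 were higher and 2, 2, 1, 1 and 1 lower at 18, 36, 53, 72 and 96 h, the receptor included among those higher. Over all genes 14.8%, 33.2%, 31.8%, 29.3% and 25.1% were called higher and 14.7%, 32.1%, 34.5%, 39.2% and 35.7% lower. Without replicate 1 of 18 h, 1 was higher and 1 lower at 18 h. NR3C1, the receptor itself, rose by 3.67 ± 0.35 at 53 h (limma adjusted p = 7.64e-07) and was at 2.67 ± 0.35 at 96 h (2.14e-05). KLF9, a transcription factor that glucocorticoids induce, rose at least 9.4-fold at 72 h (limma adjusted p = 1.49e-07). TSC22D3, an anti-inflammatory target, rose by 3.08 ± 0.36 at 36 h (limma adjusted p = 5.22e-06). MT2A, a metallothionein, rose by 1.96 ± 0.53 at 72 h (limma adjusted p = 0.00503). ZBTB16, another known target, fell at least 6.03-fold from 53 h on (limma adjusted p = 3.21e-05 at 96 h), against the direction of NR3C1, KLF9, TSC22D3 and MT2A. FKBP5, a listed gene chosen for mention after its values were seen, ran from 2.48 to 3.61 on all arrays and was not tested. SGK1, chosen for mention after its values were seen, was lower by 1.65 ± 0.22 at 36 h and higher by 1.48 ± 0.25 at 72 h (limma adjusted p of 1.88e-05 and 0.000125).

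PNP, which splits nicotinamide riboside and purine nucleosides and was also chosen after its values were seen, fell by 3.29 ± 0.34 at 53 h (limma adjusted p = 1.7e-06) and differed by -0.68 ± 0.34 at 96 h, which did not pass. KDR, the 1 endothelial marker above log2 4, was at least 23.8-fold higher at 53 h (limma adjusted p = 1.16e-08) and at least 2.3-fold higher at 96 h (0.000515).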
